A study of Mus musculus with 4 samples.

Results

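The IFI200 family, also called the HIN or PYHIN family, is a set of related genes that lie side by side on mouse chromosome 1. Of the 35275 genes in the deposited table, 8 are described here: Ifi203, Ifi204, Ifi208, Ifi209, Ifi213, Ifi214, Mndal and Aim2. They were chosen by name, as a cluster of DNA sensors with near-identical copies, when their values and their opposite directions between genotypes were already known. Their differences between genotypes are therefore given as a description, with no test.

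The RNA came from regulatory T cells of the double-negative kind (DNT), which have an αβ receptor but neither CD4 nor CD8. There were 2 libraries of OX40-knockout cells, called OX40-knockout 1 and 2 after their labels, and 2 of wild-type cells. All 4 carry the strain label C57BL/6. Cells of both genotypes started as naive CD4 T cells, were converted in the same way, and passed a sort that kept CD3+ TCRαβ+ cells and discarded those with NK markers, CD4 or CD8. Tnfrsf4 encodes OX40, through which activated T cells receive costimulation. The age of the mice, the removed part of Tnfrsf4 and whether a genotype's libraries come from separate animals are not stated in the labels. P-values therefore rest on a spread that may be technical. Values are RPKM, reads scaled by transcript length and library total, and may be compared between genes.

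The library totals behind the values lay between 22220888 and 24395743 reads. Tnfrsf4 itself was read at 12.1 and 9.38 RPKM in OX40-knockout 1 and 2 and at 18.2 and 12.3 RPKM in wild-type 1 and 2, with both OX40-knockout libraries below both of wild-type by a narrow margin (limma adjusted p = 0.975). With the removed part unstated, this checks the labels little. In a linear model over all genes (limma on log2(RPKM + 1)), 0 of 11625 tested genes had an adjusted p under 0.05, a share of 0.0%. At an unadjusted p under 0.05 there were 162 (1.39%), and limma-voom on recovered reads also called 0. OX40-knockout 1 stood apart from the other libraries. Its distance from OX40-knockout 2 reached 2-fold on the scale of log2(RPKM + 1) in 578 tested genes, while wild-type 1 and 2 were that far apart in 132. All 7 genes listed as markers of T cells with an αβ receptor were read. Cd3e, of the CD3 complex, stood at 248 RPKM or more in each library. Trac, of the receptor itself, stood at 279.2 and 159.1 RPKM in the OX40-knockout libraries and at 250.4 and 203.4 RPKM in wild-type DNT. Of the 10 B cell markers, Ms4a1, Pax5 and Fcrla were listed at 0 throughout, and the summed level, most of it Ighm, was 29.6 and 13.8 RPKM in the OX40-knockout and 17.2 and 15.7 RPKM in wild-type DNT. Of the 15 dendritic and myeloid markers, Siglech was listed at 0 throughout, and the sum, with Cd68 its highest member, was 23.2 and 24.7 RPKM against 19.8 and 32.6 RPKM. Cd68 alone stood at 18.9 and 12.87 against 13.92 and 16.05 RPKM. The other tested markers of this list, Itgam, Itgax and Lyz2, were higher in the second library of each genotype. Itgam stood at 0.957 and 3.19 against 1.21 and 3.72 RPKM. The 7 NK markers were all read in spite of the sort, with sums of 156.6 and 391.9 RPKM against 271.8 and 423.0 RPKM, lowest in OX40-knockout 1. Most of each sum was Klrb1c and Eomes. All 7 were higher in the second library of each genotype, as Klra8, at 0.382 and 8.80 against 0.475 and 11.4 RPKM. Cd4 was read at 10.1 and 2.06 RPKM against 0.820 and 1.97 RPKM, highest in OX40-knockout 1. The CD8 genes were read as well, Cd8a at 16.56 and 9.03 against 10.45 and 10.42 RPKM. Cd8b1 stood at 4.44 and 2.0 against 3.37 and 2.49 RPKM, and both were highest in OX40-knockout 1. The part of these markers' cells in the values of the family was not tested.

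Proteins of the family carry a HIN domain, which binds DNA, a pyrin domain, which joins them to other pyrin proteins, or both. Aim2 binds double-stranded DNA in the cytosol and recruits the adaptor ASC and caspase-1 into an inflammasome. In mouse macrophages the product of Ifi204 acts in DNA sensing through STING. Many of these genes are induced by interferons, and the number of genes in the cluster differs between mammals. RefSeq gives Pydc3 as a synonym of Ifi208 and Pydc4 as one of Ifi213, names that stand for a pyrin domain. The separate roles of Ifi208, Ifi209, Ifi213 and Ifi214 are less well described.

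Several members are close copies of each other at their start regions, and Aim2 is not: it aligned over 27 bases at most with any other start region of the cluster. RefSeq start regions, of 250 bases before and 50 after an annotated start in the build GRCm38.p6, were at hand for 7 of the 8 members (all except Ifi204). Those of Ifi208 (chr1:173673415-173673714, plus strand) and Ifi213 (chr1:173599223-173599522, minus strand) are printed whole because these genes, which lie in opposite orientation, give the clearest view of how close the copies are: they were identical at 282 of 285 aligned positions (98.9%). Capitals mark a 10-base word, GAAATCGAAA, that both hold.
Ifi208: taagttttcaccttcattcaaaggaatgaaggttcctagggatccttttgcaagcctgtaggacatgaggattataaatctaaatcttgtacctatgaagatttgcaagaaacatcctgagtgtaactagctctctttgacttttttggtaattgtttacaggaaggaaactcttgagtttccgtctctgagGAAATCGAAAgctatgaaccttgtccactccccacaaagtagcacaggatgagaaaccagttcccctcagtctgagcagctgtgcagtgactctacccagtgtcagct
Ifi213: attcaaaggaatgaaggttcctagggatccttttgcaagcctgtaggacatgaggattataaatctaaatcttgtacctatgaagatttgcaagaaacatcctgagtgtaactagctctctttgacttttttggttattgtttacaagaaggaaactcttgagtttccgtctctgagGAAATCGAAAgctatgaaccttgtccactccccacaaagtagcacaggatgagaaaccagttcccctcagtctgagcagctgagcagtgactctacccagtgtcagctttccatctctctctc

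By likeness, the start regions of the members other than Aim2 fall into 3 groups. Ifi208, Ifi213 and their neighbour Ifi206 form the first. Ifi209 and Ifi214 were identical at 287 of 300 aligned positions (95.7%), and Ifi203 and Mndal at 282 of 299 (94.3%). Between groups the aligned stretches were shorter, 145 bases at most, as for Ifi208 with Ifi214, which were identical at 109 of the 145 (75.2%). The stretches around the shared word are shown for 7 genes of the cluster, including Ifi206, which is not a member, to set the groups side by side. Beside Ifi208 and Ifi213 these are from the regions of Ifi206 (chr1:173491269-173491568, minus strand), Ifi214 (chr1:173535908-173536207, minus strand), Ifi209 (chr1:173630609-173630908, plus strand), Ifi203 (chr1:173942443-173942742, minus strand) and Mndal (chr1:173880138-173880437, minus strand). Ifi203 and Mndal have a second annotated start, whose region lacks the word. Capitals mark the word or, in Ifi209, the same place with 1 substitution.
Ifi208: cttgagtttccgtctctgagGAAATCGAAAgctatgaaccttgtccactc
Ifi213: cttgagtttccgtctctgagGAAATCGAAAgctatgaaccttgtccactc
Ifi206: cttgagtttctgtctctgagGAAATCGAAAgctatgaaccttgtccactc
Ifi214: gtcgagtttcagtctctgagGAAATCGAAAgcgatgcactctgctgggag
Ifi209: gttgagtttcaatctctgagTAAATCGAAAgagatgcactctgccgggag
Ifi203: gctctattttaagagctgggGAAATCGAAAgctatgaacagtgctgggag
Mndal: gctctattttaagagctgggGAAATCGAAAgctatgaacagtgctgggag

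The word matches the pattern GAAANNGAAA, the core of the element through which interferon-activated factors act. This pattern was searched on both strands and stood in the start regions of 3.99% of 27025 genes and of 5 of the 7 members with a start region. The word itself was picked after these regions were seen, and it is one form of that pattern. It stood in 16 of the 27025 genes (0.0592%), and 7 of the 16 lie in this cluster: Ifi203, Ifi206, Ifi207, Ifi208, Ifi213, Ifi214 and Mndal. Many of these start regions are close copies of each other, so their matches are not separate occurrences. No enrichment is read from the counts of the pattern or the word. It begins 58 bases before the annotated start in Ifi208, 73 in Ifi213, 79 in Ifi214, 35 in Ifi203, 36 in Mndal and 40 in Ifi206. In Ifi209 the same place holds the substitution G1T (position 1 is the 5′ base of the word), 79 bases before the start. No match was found within the Aim2 window. A second searched pattern, TTCNNNGAA, the core of STAT-binding elements, stood in 0 of the 7 members and in 9.55% of all genes. Such matches describe letters in these windows and show no binding.

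**Figure D1:**
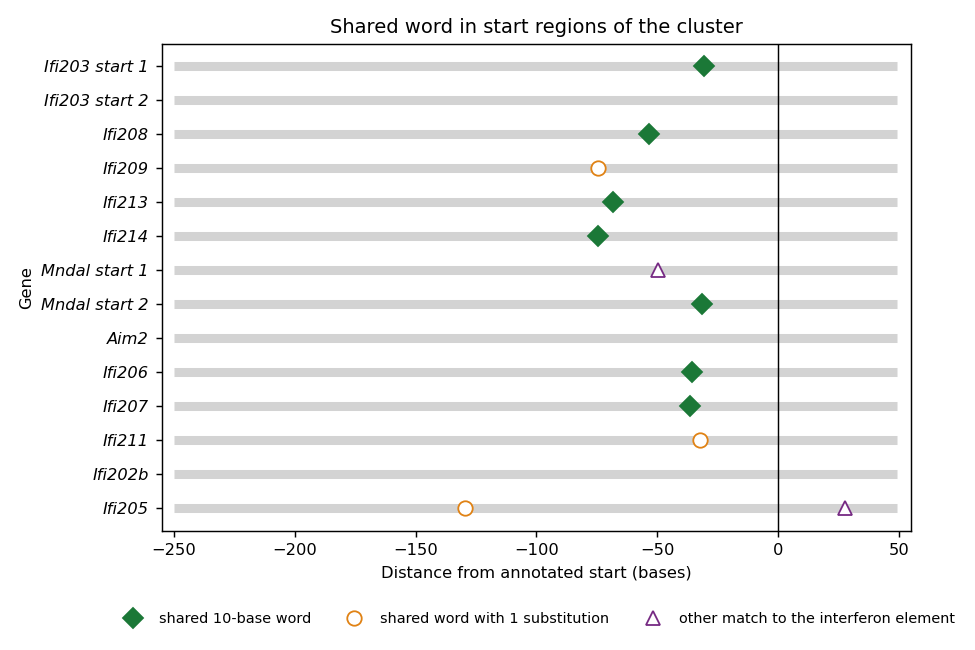
Positions of the shared 10-base word in RefSeq start regions of genes of the cluster, with distance from the annotated start in bases on the horizontal axis and 1 grey line per region. Filled diamonds mark the exact word, circles the word with 1 substitution and triangles other matches to the wider interferon pattern; in Ifi208 the word begins 58 bases before the start, and in Ifi213 73.

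Shared transcript sequence limits how reads can be told apart between members. Of the distinct 50-base words in the annotated transcripts of Ifi209, 33.7% also occurred in another gene, nearly all of them in Ifi214. For Ifi208 it was 20.9%, with 951 words shared with Ifi213 and 319 with Ifi206. The share was 20.02% for Ifi204, mostly with Ifi211, 19.6% for Mndal, 15.6% for Ifi213, 14.6% for Ifi214 and 12.4% for Ifi203. Aim2 shared 0.742% and is the member whose reads can best be told apart. Mndal is annotated across Ifi203 and Ifi211 on the same strand. The sources used here do not give the use of strand or how the authors counted reads that fit several genes, so the division of reads within each group of copies is uncertain.

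Mndal, whose product is a nuclear HIN protein, and Aim2 had the highest levels. They ranked 1543 and 1732 by mean RPKM among the 20996 genes above 0, and their ranges overlapped. Both lay above every value of Ifi203, which stood above Ifi209 in each library although their ranges over the 4 libraries overlapped. Ifi209 was in turn above every value of Ifi213, Ifi214 and Ifi208, whose mean levels of 6.86, 6.07 and 5.93 RPKM over the 4 libraries could not be ordered, as their ranges overlapped. Ifi204 was lowest, between 0.452 and 0.819 RPKM, from 23 to 41 reads. Its mean of 0.650 RPKM left it under the minimum mean of 1 RPKM for testing, and the other 7 members passed that filter.

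**Figure D2:**
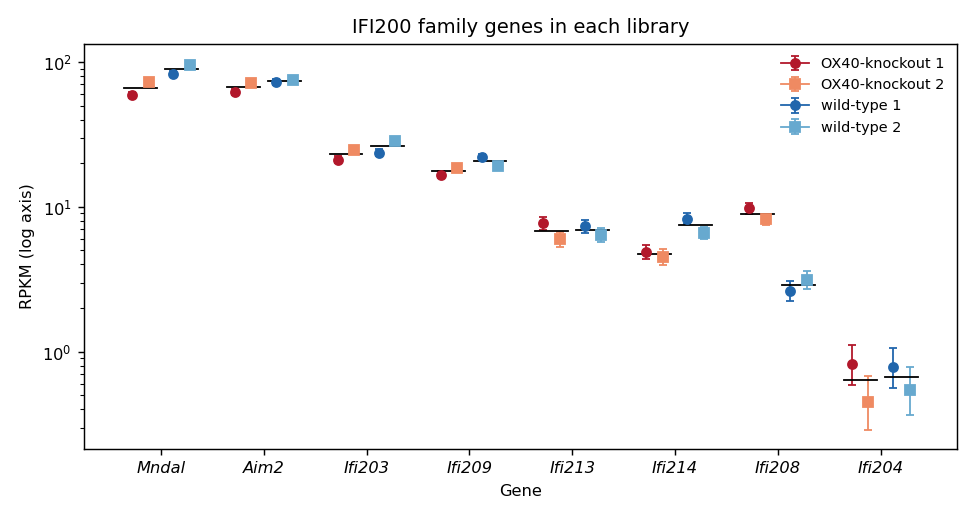
RPKM of the 8 genes in each library on a log axis, ordered by mean level, with OX40-knockout libraries left and wild-type libraries right. Whiskers are exact 95% Poisson intervals of recovered reads (counting error only) and black bars are group means (n = 2); for Ifi208 the OX40-knockout libraries sit at 9.75 and 8.18 RPKM and the wild-type libraries at 2.63 and 3.15 RPKM.

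Ifi208 was the member that was higher in OX40-knockout DNT. It stood at 9.75 and 8.18 RPKM in OX40-knockout 1 and 2, against 2.63 and 3.15 RPKM in wild-type 1 and 2. Both OX40-knockout libraries lay far above both wild-type libraries, and the counting intervals, 8.95 to 10.6 and 7.46 to 8.95 RPKM against 2.24 to 3.08 and 2.72 to 3.62 RPKM, left a wide gap. The reads behind these values were 556 and 474 in the OX40-knockout libraries and 157 and 197 in the wild-type libraries. Group means were 8.96 ± 1.11 and 2.89 ± 0.362 RPKM (OX40-knockout and wild-type, SD, n = 2 each), a ratio of 3.10. The log2 difference of RPKM + 1 was 1.36 with a standard error of 0.17. In the positive direction 12 of the 11625 tested genes, Ifi208 included, had one at least as large. Since Ifi208 was chosen with this contrast known, that count gives its place and is no test. Its share of the summed RPKM of the 8 members was 5.35% and 3.94% in the OX40-knockout libraries and 1.19% and 1.34% in the wild-type libraries. In such bulk samples fewer cells that express a gene and less RNA per cell cannot be told apart.

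4 members had both OX40-knockout libraries below both of wild-type: Ifi214, Mndal, Ifi209 and Aim2. Of all tested genes 17.8% did so and 8.66% stood higher in both (26.4% in either direction), and 1 of the 7 tested members, Ifi208, stood higher in both. Since the members were chosen with this contrast known, nothing is read from these counts.

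Ifi214 differed most among the lower members. It stood at 4.89 and 4.51 RPKM in the OX40-knockout libraries, against 8.28 and 6.58 RPKM in wild-type DNT, and the counting intervals of the groups did not meet. Group means were 4.70 ± 0.266 and 7.43 ± 1.20 RPKM (OX40-knockout and wild-type, SD, n = 2 each), with a log2 difference of -0.56 (SE 0.17). Mndal stood at 59.4 and 73.1 RPKM in the OX40-knockout libraries, against 83.02 and 95.55 RPKM in wild-type DNT. The groups did not overlap and no counting intervals met, but the OX40-knockout libraries were farther from each other than OX40-knockout 2 was from wild-type 1. The log2 difference of Mndal was -0.43 (SE 0.15), and -0.28 without OX40-knockout 1.

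In Ifi209 and Aim2 the gap between the groups was narrow. Ifi209 stood at 16.6 and 18.5 RPKM in the OX40-knockout libraries, against 22.2 and 19.2 RPKM in wild-type DNT. OX40-knockout 2 and wild-type 2 met within counting error, at 17.6 to 19.5 against 18.3 to 20.1 RPKM. The log2 difference of Ifi209 was -0.22 (SE 0.14), -0.15 without OX40-knockout 1 and -0.12 without wild-type 1. Aim2 stood at 62.0 and 71.9 RPKM in the OX40-knockout libraries, against 72.5 and 74.8 RPKM in wild-type DNT. OX40-knockout 1 was low, and OX40-knockout 2 met both wild-type libraries within counting error. The log2 difference of Aim2 was -0.14 (SE 0.12), -0.03 without OX40-knockout 1 and -0.25 without OX40-knockout 2.

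The other 3 members overlapped between genotypes. Ifi203 stood at 21.2 and 24.7 RPKM in the OX40-knockout libraries and at 23.7 and 28.6 RPKM in wild-type DNT. The second library was the higher in both genotypes, and the log2 difference was -0.18 (SE 0.15), -0.07 without OX40-knockout 1 and -0.05 without wild-type 2. It was -0.29 without OX40-knockout 2 and -0.31 without wild-type 1. Ifi213, the near-copy of Ifi208, stood at 7.71 and 5.96 RPKM in the OX40-knockout libraries and at 7.34 and 6.43 RPKM in wild-type DNT. Its first library was the higher in both genotypes, and the log2 difference was -0.02 (SE 0.18). Ifi204 stood at 0.819 and 0.452 RPKM in the OX40-knockout libraries and at 0.784 and 0.546 RPKM in wild-type DNT, and all 4 counting intervals overlapped.

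The family is low in GC content, and OX40-knockout 1 had a GC trend. All 7 tested members lie in the lowest of 5 equal classes of tested genes by transcript GC content, up to 45.1%. Over the genes of that class, the median deviation of a library from the mean of all 4, in log2(RPKM + 1), was -0.18 for OX40-knockout 1, while the other 3 libraries lay at 0.05 to 0.07. With a GC correction the log2 difference was 1.47 for Ifi208, -0.41 for Ifi214 and -0.27 for Mndal. It was -0.08 for Ifi209, -0.03 for Aim2 and -0.02 for Ifi203, each nearer to 0 than 1 SE of the uncorrected fit, and 0.12 for Ifi213.

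**Figure D3:**
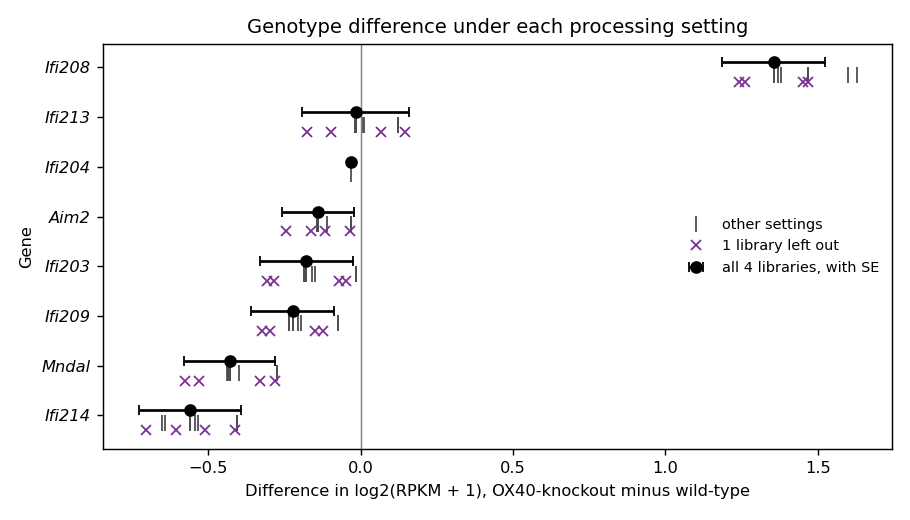
Difference in log2(RPKM + 1), OX40-knockout minus wild-type, for each of the 8 genes, with the value from all 4 libraries and its standard error as a filled circle, other processing settings as vertical ticks and values with 1 library left out as crosses. Ifi208 lies between 1.24 and 1.63 and Ifi214 between -0.70 and -0.41, while Ifi213 lies on both sides of 0.

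Because reads can be divided among copies in more than one way, the groups of copies were also added up. Ifi208 and Ifi213 together stood at 17.5 and 14.2 RPKM in the OX40-knockout libraries, against 9.97 and 9.58 RPKM in wild-type DNT. The sum was higher in both OX40-knockout libraries, so the higher Ifi208 was not matched by a lower Ifi213. The ratio of Ifi208 to Ifi213 was 1.26 and 1.37 in the OX40-knockout libraries and 0.359 and 0.489 in the wild-type libraries. Ifi206, the third copy in this group, was the more abundant, at 39.2 and 28.7 RPKM against 37.2 and 34.3 RPKM, and overlapped between genotypes. With Ifi206 included the sum was 56.6 and 42.9 RPKM in the OX40-knockout libraries and 47.1 and 43.9 RPKM in wild-type DNT, which overlap. The spread of Ifi206 between the OX40-knockout libraries was thus wider than the whole level of Ifi208 there.

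Ifi209 and Ifi214 together stood at 21.5 and 23.0 RPKM in the OX40-knockout libraries, against 30.5 and 25.8 RPKM in wild-type DNT. This sum was lower in both OX40-knockout libraries, with a log2 difference of -0.33 and a replicate SD of 0.13. The ratio of Ifi214 to Ifi209 was 0.294 and 0.244 in the OX40-knockout libraries and 0.373 and 0.343 in the wild-type libraries. Mndal and Ifi203 together stood at 80.6 and 97.8 RPKM, against 106.7 and 124.2 RPKM, again lower in both OX40-knockout libraries, and the ratio of Ifi203 to Mndal was 0.357 and 0.339 against 0.285 and 0.299. The ratios of the genotypes did not overlap in these 3 pairs. For Ifi214 to Ifi209 the gap between genotypes was about that between the OX40-knockout libraries. Of single tested genes 26.4% did not overlap in either direction, and no such share was computed for ratios. As the members were chosen with this contrast known, nothing is read from the 3 ratios as a count.

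**Figure D4:**
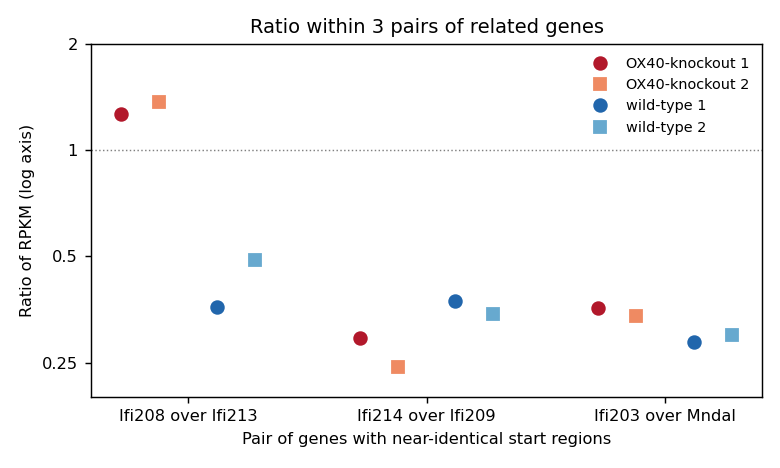
Ratio of RPKM within 3 pairs of related genes, drawn on a log scale, with each library as a point and OX40-knockout libraries left of wild-type libraries. Ifi208 over Ifi213 is 1.26 and 1.37 in the OX40-knockout libraries and 0.359 and 0.489 in the wild-type libraries, on opposite sides of 1.

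All 8 members together summed to 182.3 and 207.4 RPKM in the OX40-knockout libraries, against 220.5 and 234.9 RPKM in wild-type DNT. The log2 difference of the summed level was -0.23, with a replicate SD of 0.10, and -0.13 without OX40-knockout 1. Mndal and Aim2 made up most of it, Mndal with 32.6% and 35.2% of the sum in the OX40-knockout and 37.7% and 40.7% in the wild-type libraries, and Aim2 with 34.0% and 34.7% against 32.9% and 31.9%. The sum therefore describes these genes more than Ifi208. Over the 14 genes of the cluster in the table the log2 difference was -0.20.

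Of the other genes in the cluster, Ifi206 alone had more than trace reads. Ifi207 and Ifi211 had 3 to 8 reads in each library, and Ifi202b and Ifi203-ps had at most 4. Ifi205 was listed at 0 in all 4 libraries. On the Aim2 side the cluster is bordered by Cadm3, which overlaps Aim2 on the opposite strand and had at most 9 reads. On the other side the nearest listed genes, Olfr433 and 3 further olfactory receptor genes, were at 0.

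Pycard, Casp1 and Gsdmd, the partners through which Aim2 acts, were read in every library. None of 12 tested genes of the AIM2 inflammasome list passed the limma threshold over all genes, where 0.0% of all genes did. Their median log2 difference was -0.07, beside -0.03 over all tested genes, with 8 below 0 and 4 above (10 and 2 with OX40-knockout 1 left out). Pycard, which encodes the adaptor ASC, stood at 36.0 and 34.3 RPKM in the OX40-knockout libraries and at 34.8 and 36.1 RPKM in wild-type DNT. Casp1, encoding the protease that ASC activates, stood at 12.36 and 11.99 against 13.3 and 12.6 RPKM. Gsdmd, the pore-forming substrate of that protease, stood at 25.04 and 20.85 against 22.1 and 23.5 RPKM. The cytokine gene Il18, whose product caspase-1 matures, was at 0.252 RPKM or less in every library. These 4 were taken for their role, outside the naming rule. The 3 list genes of lowest p were Il18r1 and Il18rap, which encode the IL-18 receptor chains, and Casp4. Il18r1 stood at 26.8 and 33.7 against 35.2 and 44.7 RPKM, Il18rap at 71.3 and 75.1 against 81.6 and 84.4 RPKM, and Casp4, the protease gene of the non-canonical inflammasome, at 12.5 and 7.65 against 6.65 and 6.60 RPKM. Each had a limma adjusted p of 0.975.

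In the list of cytosolic DNA sensing and STING signalling, 17 of 28 tested genes had a log2 difference below 0 and 11 above, with a median of -0.07, and none passed. Over all tested genes 56.6% had a difference below 0. With OX40-knockout 1 left out, 22 of the list were below 0 and 6 above, and the median was again -0.07. Over all tested genes the median without OX40-knockout 1 was -0.03. The share of all tested genes below 0 was not counted in that setting, so such counts have no baseline, in this list or the others. Cgas, the enzyme that makes the messenger of STING, stood at 5.60 and 6.77 RPKM in the OX40-knockout libraries and at 5.86 and 7.55 RPKM in wild-type DNT. Tmem173, which encodes STING, stood at 46.6 and 36.3 against 43.2 and 40.1 RPKM. Both genes, again taken for their role, overlapped between genotypes. The genes of lowest p were Hmgb2 and Hmgb1, DNA-bending chromatin proteins, and Tbk1, the kinase downstream of STING. Hmgb2 stood at 184.6 and 203.6 against 222.3 and 234.5 RPKM, Tbk1 at 21.2 and 22.6 against 23.8 and 25.4 RPKM, and Hmgb1 at 542.2 and 638.1 against 654.2 and 672.1 RPKM, each with a limma adjusted p of 0.975.

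In the lists for interferon action the balance of directions differed from list to list and moved when OX40-knockout 1 was left out. None of 18 tested genes for interferon receptors and STAT signalling passed, with 9 below and 9 above 0. With OX40-knockout 1 left out, 13 were below and 5 above. Those of lowest p were Ifnar1, a receptor chain for type I interferon, at 35.4 and 37.2 RPKM in the OX40-knockout and 41.1 and 46.1 RPKM in wild-type DNT, Usp18, a negative regulator of that receptor, at 8.77 and 5.58 against 10.2 and 10.4 RPKM, and the kinase gene Jak2, at 29.5 and 31.4 against 35.6 and 34.4 RPKM. Of 37 tested type I interferon-stimulated genes, 28 had a log2 difference above 0 and 9 below, with a median of 0.21. That balance rested on OX40-knockout 1, where the median deviation of the list was 0.37, while it was -0.23 in OX40-knockout 2 and -0.04 and -0.15 in wild-type 1 and 2. With OX40-knockout 1 left out, the list median was -0.18, with 5 above and 32 below 0. Isg15, a ubiquitin-like interferon product, stood at 17.6 and 9.08 against 8.66 and 7.21 RPKM, Slfn1 at 23.9 and 14.1 against 15.5 and 11 RPKM, and Parp9 at 62.3 and 59.9 against 68.13 and 66.97 RPKM. None of the type I genes passed, and the limma adjusted p was 0.975 for each gene named from these interferon lists and for the GTPase genes named next.

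Of 13 tested interferon-inducible GTPase genes 10 had a log2 difference below 0 and 3 above, with a median of -0.13, beside 56.6% below 0 over all tested genes, and none passed. Gbp7 stood at 33.5 and 35.1 RPKM in OX40-knockout DNT and at 43.6 and 41.9 RPKM in wild-type DNT, Irgm2 at 8.49 and 8.18 against 10.1 and 11.5 RPKM, and Gbp3 at 22.5 and 22.8 against 27.5 and 26.6 RPKM. Leaving OX40-knockout 1 out, this median was -0.33, with 12 below 0 and 1 above. Set beside these lists, Ifi208 deviated by 0.79 and 0.56 from its mean over the libraries, in log2(RPKM + 1), in the OX40-knockout libraries and by -0.77 and -0.58 in the wild-type libraries. In OX40-knockout 1, where the median of the interferon-stimulated genes was highest, the members went both ways. Mndal, Ifi203, Ifi209 and Aim2 were at their lowest there, with deviations of -0.36, -0.20, -0.19 and -0.18. Ifi208, Ifi213 and Ifi204 were at their highest there, with 0.79, 0.15 and 0.15, and Ifi214, at -0.23, was at neither end. Over all genes of the lowest GC class, which holds the tested members, the median deviation in OX40-knockout 1 was -0.18. The values of Ifi203, Ifi209, Aim2 and Ifi214 there were near that median, and Mndal was below it. Ifi208 and Ifi213, of the same class, were above it. The part of GC content in these values was not tested.

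**Figure D5:**
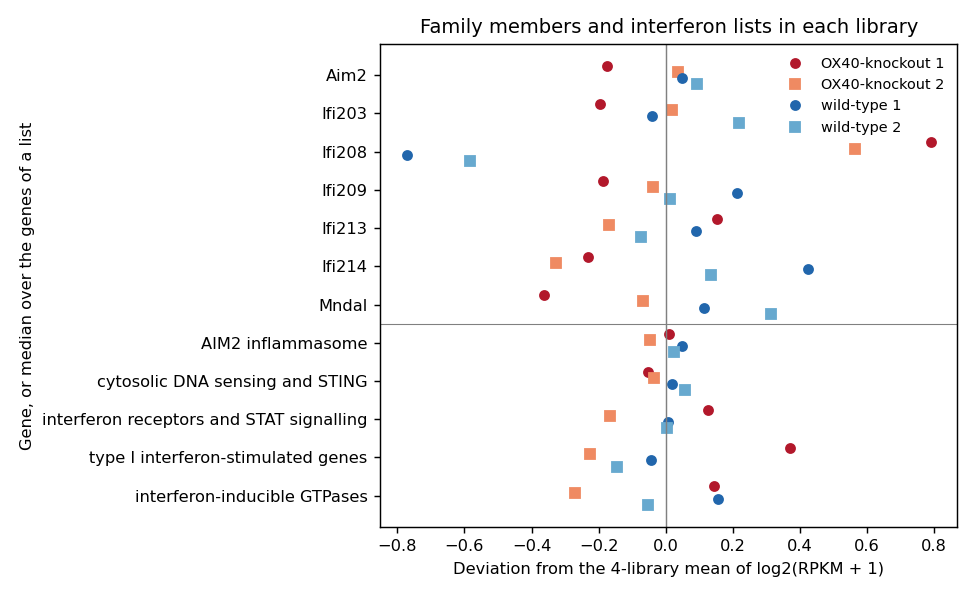
Deviation, in log2(RPKM + 1) and drawn along the horizontal axis, from the mean of the 4 libraries for the 7 tested members (above the line) and the median deviation of 5 gene lists (below the line), with 1 point per library. The interferon-stimulated genes reach 0.37 in OX40-knockout 1, where Mndal is at -0.36, and Ifi208 has both OX40-knockout libraries, at 0.79 and 0.56, above both wild-type libraries.

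The genes whose profiles over the 4 libraries lay nearest to that of Ifi208, by Euclidean distance between deviations and among the 8878 genes that averaged 5 RPKM or more, were Papss1 (distance 0.48), Batf3 (0.51) and Il22 (0.52). Papss1, an enzyme that makes the sulfate donor of the cell, stood at 16.4 and 12.9 RPKM in the OX40-knockout libraries, against 7.49 and 6.78 RPKM in wild-type DNT. Batf3, a transcription factor gene, stood at 22.7 and 20.2 against 9.98 and 12.9 RPKM, and the cytokine gene Il22 at 50.2 and 44.1 against 26.2 and 23.1 RPKM. All 3 had smaller differences between genotypes than Ifi208 by ratio of RPKM. Nearest to Ifi214 were Cd160, an NK and T cell receptor gene, Cxcr3, a chemokine receptor gene, and Gramd3, at distances of 0.08, 0.10 and 0.13. Cd160 stood at 34.0 and 34.3 RPKM, against 55.4 and 44.7 RPKM, and Cxcr3 at 8.42 and 7.04 against 13.4 and 10.8 RPKM. 4 libraries allow few shapes, and likeness is no evidence of shared control.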

How the data were processed

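The authors deposited 1 table of RPKM values, 1 column per library; the unit was settled from its values. Bowtie 0.12.2 and mm8 are named in the submitters' processing notes. Annotation, counting tool, strand use and treatment of multiply fitting reads: not given in the sources used here. GENCODE vM21 (GRCm38) named 34490 of the 35275 IDs and gave transcript lengths, GC content and gene order. Since the build named in the notes differs from GRCm38, values were joined to this annotation by gene ID only. Positions, strands and overlaps of genes given here are those of GRCm38.

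Smallest values of single-transcript genes gave each library total. With these, whole reads were found in 82.6% to 83.3% of such genes using annotated lengths (tolerance 0.02), and other lengths were then searched (tolerance 0.005). The sum of recovered reads was 98.8% to 98.9% of each total. Reads of some genes, Ifi206 included, may be off by a factor. Intervals are exact 95% Poisson intervals and cover counting error only.

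Tests used limma 3.58.1 in R 4.3.3 on log2(RPKM + 1), trended variances and a filter that kept 11625 genes averaging 1 RPKM or more, for all 4 libraries without a block, with Benjamini-Hochberg adjustment and a threshold of 0.05. The pseudocount understates the change of low genes. The fit was also run on simulated data with independent noise, no outlying library and no GC trend. That run does not show how the fit behaves on these libraries. The smallest p of an exact permutation test of 2 against 2 is 0.333, and no such test was run. Every pair of libraries differed beyond sampling noise (chi-square of 12.1 or more per degree of freedom). The closest pair, OX40-knockout 2 with wild-type 2, was across genotypes. Wild-type 1 with wild-type 2 stood at 14.8 and OX40-knockout 1 with OX40-knockout 2 at 86.2. Alternatives were another pseudocount, other filters, TMM factors, quantile normalization, a GC correction, a replicate block, limma-voom and leaving out each library.

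The members and gene lists were chosen with earlier results of these data known. Named are all members, other genes of the cluster, Tnfrsf4, the 3 genes of lowest p in each list and the 3 nearest profiles of the members with the largest positive and negative difference. Start regions are from RefSeq (GRCm38.p6). Python 3.11.15, pandas 2.3.3, Biopython 1.88 and matplotlib 3.10.9 were also used.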

Additional observations from a re-analysis of the deposited data

How the results depend on the processing

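The number of genes past the limma threshold was 0 as reported and with another pseudocount, with either other filter, with TMM factors, with the GC correction and with limma-voom. It was 1 with quantile normalization and between 0 and 1 when a library was left out, where 1 was reached without wild-type 2. With the replicate number as a block it was 5, and 1 with the GC correction and the block together. No member was among these genes. Across tested genes, the difference between OX40-knockout 1 and 2 correlated at 0.47 with that between wild-type 1 and 2. No label gives the replicate numbers as a pairing, and 2 pairs cannot settle it. The summed level of the 8 members had a log2 difference of -0.23, and between -0.32 and -0.13 when a library was left out. The filters and the block cannot change a gene's own difference in this balanced layout and say nothing of its stability. Under the settings that can (pseudocount, TMM factors, quantile normalization, GC correction, limma-voom and each library left out), the difference ran from 1.24 to 1.63 for Ifi208, -0.70 to -0.41 for Ifi214, -0.58 to -0.27 for Mndal, -0.32 to -0.08 for Ifi209, -0.25 to -0.03 for Aim2, -0.31 to -0.02 for Ifi203 and, across 0, -0.18 to 0.15 for Ifi213. The values without OX40-knockout 1 for the gene lists were chosen after seeing the data. Depth limits Ifi204, with 41 reads or fewer in each library. With 2 libraries in each genotype, the lack of calls does not show that genotype differences are absent.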

Other observations

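Outside the cluster the shared word GAAATCGAAA stood in the start regions of 9 genes, among them Ddx58, Parp11, Pnrc1, Ripk1 and Serpinb6a, which were all tested and are named for the word, outside the naming rule. Ddx58, which encodes the RNA sensor RIG-I, stood at 71.8 and 65.2 RPKM in OX40-knockout 1 and 2 and at 68.7 and 67.2 RPKM in wild-type 1 and 2. Ripk1, a kinase of cell death and NF-kB signalling, stood at 19.8 and 19.3 RPKM in OX40-knockout DNT and at 20.5 and 18.1 RPKM in wild-type DNT. Both overlapped between genotypes. Parp11, an ADP-ribosyltransferase gene, stood at 14.2 and 12.7 RPKM in the OX40-knockout libraries, below the 18.0 and 17.5 RPKM of wild-type DNT. Pnrc1 and Serpinb6a overlapped, at 165.5 and 105.7 against 116.5 and 95.7 RPKM and at 73.8 and 80.4 against 90.3 and 73.0 RPKM.

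Fcer1a, a gene beside the cluster that encodes a chain of the IgE receptor, followed the replicate number more than the genotype. It stood at 0.439 and 4.19 RPKM in OX40-knockout 1 and 2 and at 0.504 and 7.79 RPKM in wild-type 1 and 2. The NK receptor gene Ncr1 did likewise, with 0.183 and 7.49 RPKM against 0.408 and 7.93 RPKM. Among the members, Ifi203, Mndal and Aim2 were higher in the second library of each genotype, and Ifi213, Ifi214 and Ifi204 in the first. Their differences were far smaller than those of Fcer1a and Ncr1. The counting intervals of the replicates overlapped for Ifi204, for Ifi214 in OX40-knockout DNT, and for Ifi213 and Aim2 in wild-type DNT. The share of all genes with the same order in both genotypes was not counted, so nothing is read from these orders.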
